A study of Homo sapiens with 16 samples.

Results

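The S phase and DNA replication genes followed here are 54 genes chosen by symbol from a fixed list, out of 57820 genes in the RSEM gene tables of a BRD9 deletion time course. All 54 passed the filter on low counts and were among the 15027 genes tested. They comprise 7 genes of the MCM helicase group, 5 of origin licensing, 5 of CDC45 and GINS, 7 of the sliding clamp and its loaders, 3 of RPA, 9 polymerase and primase subunits, 2 of Okazaki fragment maturation, 5 of nucleotide supply, 4 of cyclin E and E2F, 2 of the fork checkpoint, 4 of chromatin assembly and S phase histone supply, and WDR76.

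The cells were G401, a kidney rhabdoid tumor line that carries mutant SMARCB1, grown in DMEM with 10% FBS. BRD9 KO cells received CRISPR-Cas9 guides against BRD9, a bromodomain subunit of SWI/SNF, and control cells (LacZ) a guide against a bacterial gene that human cells lack. Total RNA was sequenced on days 1, 2, 3 and 5, with 2 libraries for BRD9 KO and 2 for LacZ on each day, 8 groups and 16 libraries in all, all from this single SMARCB1-mutant line. The study's methods call the libraries of a group biological replicates. The labels do not name separate cultures, so the p-values measure the spread between these libraries. That spread was small, 1.05 to 1.15 times counting noise. Variation between cultures that these libraries do not hold is not in the p-values, however small they are.

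Before a cell copies its DNA, the origin recognition complex with CDC6 and CDT1 loads the MCM2 to MCM7 ring onto chromatin, and geminin (GMNN) blocks loading again until the next cycle. CDC45 and GINS turn the ring into an active helicase, RPA covers the exposed single strand, polymerase alpha with its primase lays down primers, the RFC loader places the PCNA clamp, and polymerases delta and epsilon extend. Many of these genes are transcribed together around the entry into S phase under E2F factors, and their RNA is high in dividing cells.

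The library totals were 9185808 to 16560669 counts in BRD9 KO and 11252814 to 15430060 counts in LacZ libraries. BRD9 RNA was 16.6 to 25.9 CPM (counts scaled to a common library size, TMM-normalized) in BRD9 KO and 45.8 to 64.5 CPM in LacZ libraries, so 35.02%, 39.6%, 40.4% and 38.9% of the LacZ level was left on days 1, 2, 3 and 5. VIM, KRT8 and KRT18 were abundant, SMARCB1 was 0 in BRD9 KO and 0 to 0.131 CPM in LacZ libraries, and PTPRC, CD3E and HBB were at 0 in all libraries. CD68, another blood gene on the marker list, was not absent, at 62.2 to 135 CPM in BRD9 KO and 65.2 to 125 CPM in LacZ libraries. By BRD9 RNA, no library stood against its label. The 54 genes had 51 to 5097 counts in a library, and 53 of them had at least 100 counts in every library.

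Because E2F control is the best known property that these genes share, the bases just before the start sites of 6 of them are shown first, chosen to span several matches, 1 match and no match to an E2F-type word. The sequences come from RefSeq on GRCh38.p14, run 5′ to 3′ along the gene's own strand and end at the base before the start site. Capitals mark the words TTTCCCGC, TTTCGCGC, TTTGCCGC or TTTGGCGC, read on either strand and with overlapping matches counted separately. MCM7 is at chr7:100101398-100101647 (minus), MCM6 at chr2:135876444-135876693 (minus), TYMS at chr18:657403-657652 (plus), PCNA at chr20:5126623-5126872 (minus), E2F1 at chr20:33686386-33686635 (minus) and CHAF1A at chr19:4402390-4402639 (plus).
MCM7: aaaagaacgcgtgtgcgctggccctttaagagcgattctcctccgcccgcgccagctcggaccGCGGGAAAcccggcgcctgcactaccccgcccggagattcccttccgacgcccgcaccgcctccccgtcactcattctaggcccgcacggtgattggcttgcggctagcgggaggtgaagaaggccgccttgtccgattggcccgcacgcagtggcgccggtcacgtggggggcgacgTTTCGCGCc
MCM6: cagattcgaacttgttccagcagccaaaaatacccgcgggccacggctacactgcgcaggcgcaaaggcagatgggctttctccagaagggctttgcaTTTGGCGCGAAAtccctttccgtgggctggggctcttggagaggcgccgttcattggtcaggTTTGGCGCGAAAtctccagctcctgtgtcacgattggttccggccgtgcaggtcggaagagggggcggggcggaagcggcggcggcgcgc
TYMS: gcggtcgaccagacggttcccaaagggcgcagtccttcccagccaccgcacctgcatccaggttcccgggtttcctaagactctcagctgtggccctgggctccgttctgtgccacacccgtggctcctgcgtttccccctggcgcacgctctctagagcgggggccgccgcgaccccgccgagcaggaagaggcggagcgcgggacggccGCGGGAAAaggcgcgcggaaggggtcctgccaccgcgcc
PCNA: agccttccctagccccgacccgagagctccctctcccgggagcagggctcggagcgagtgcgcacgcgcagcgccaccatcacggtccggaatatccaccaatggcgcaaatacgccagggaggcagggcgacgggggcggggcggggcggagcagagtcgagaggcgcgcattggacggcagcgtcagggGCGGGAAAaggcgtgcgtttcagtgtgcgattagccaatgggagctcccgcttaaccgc
E2F1: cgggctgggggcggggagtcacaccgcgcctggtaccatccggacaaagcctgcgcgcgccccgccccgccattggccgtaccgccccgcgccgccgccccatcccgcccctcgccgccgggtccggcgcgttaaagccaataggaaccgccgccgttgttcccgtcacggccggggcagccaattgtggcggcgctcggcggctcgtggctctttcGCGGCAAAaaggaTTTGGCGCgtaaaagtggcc
CHAF1A: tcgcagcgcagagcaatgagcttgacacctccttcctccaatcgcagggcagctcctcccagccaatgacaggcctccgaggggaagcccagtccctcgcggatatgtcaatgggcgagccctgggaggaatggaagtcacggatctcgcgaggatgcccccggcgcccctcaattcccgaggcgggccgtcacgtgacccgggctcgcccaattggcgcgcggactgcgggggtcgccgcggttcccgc
The MCM6 sequence held 4 matches, in 2 overlapping pairs. MCM7 and E2F1 had 2 matches each, TYMS and PCNA 1 each, and CHAF1A had none in this window.

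A promoter of 300 bases, 250 before and 50 after the start site, was in the table for 45 of the 54 genes. An E2F-type word was in 21 of these 45 promoters (46.7%), compared with 908 of all 27305 promoters in the table (3.33%). Genes with several matches were MCM2, MCM3, MCM6, MCM7 and E2F1. Among the genes that edgeR called lower in BRD9 KO over days 3 and 5 the word was in 14 of 31 promoters, and among the others in 7 of 14. A match is a description of the letters only, since the binding of factors to DNA was not measured in these libraries.

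On a scale that corrects for transcript length, the 54 genes covered a wide range of RNA levels. Thymidylate synthase (TYMS), which makes the thymidine nucleotide, had the highest mean TPM over the 16 libraries, 356, followed by PCNA with 315, the polymerase delta subunit POLD2 with 211, the dUTPase DUT with 190.2 and MCM7 with 189. The lowest were the activators of S phase entry E2F2 with 7.54 TPM and CCNE2 with 7.73 TPM, and the alternative loader subunit DSCC1 with 11.498 TPM. Members of one complex lay close together for RPA, at 95.5 to 107 TPM for RPA1, RPA2 and RPA3, whereas MCM2 to MCM7 spanned 71.2 to 189 TPM.

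BRD9 KO libraries held less RNA of these genes than LacZ libraries on days 3 and 5. The summed level of the 54 genes in TMM-normalized CPM was 3972 and 4005 in BRD9 KO libraries on day 1, against 4062 and 4055 in LacZ libraries. It was 5223 and 5286 in BRD9 KO against 5293 and 5289 in LacZ libraries on day 2, 4381 and 4395 against 4884 and 4859 on day 3, and 4637 and 4677 against 5017 and 5002 on day 5. The BRD9 KO sum was thus 98.3%, 99.3%, 90.1% and 93.0% of the LacZ sum on days 1, 2, 3 and 5. The libraries of both kinds did not overlap on any day, but on day 2 the nearest ones almost met, at 5286 and 5289 CPM. In TPM the same sums were 97.7%, 100.2%, 91.5% and 94.0%. On day 2 the libraries overlapped in TPM, with 4346 and 4433 in BRD9 KO against 4371 and 4388 in LacZ. In bulk RNA, fewer cells in S phase and less RNA of these genes per cell cannot be told apart.

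**Figure D1:**
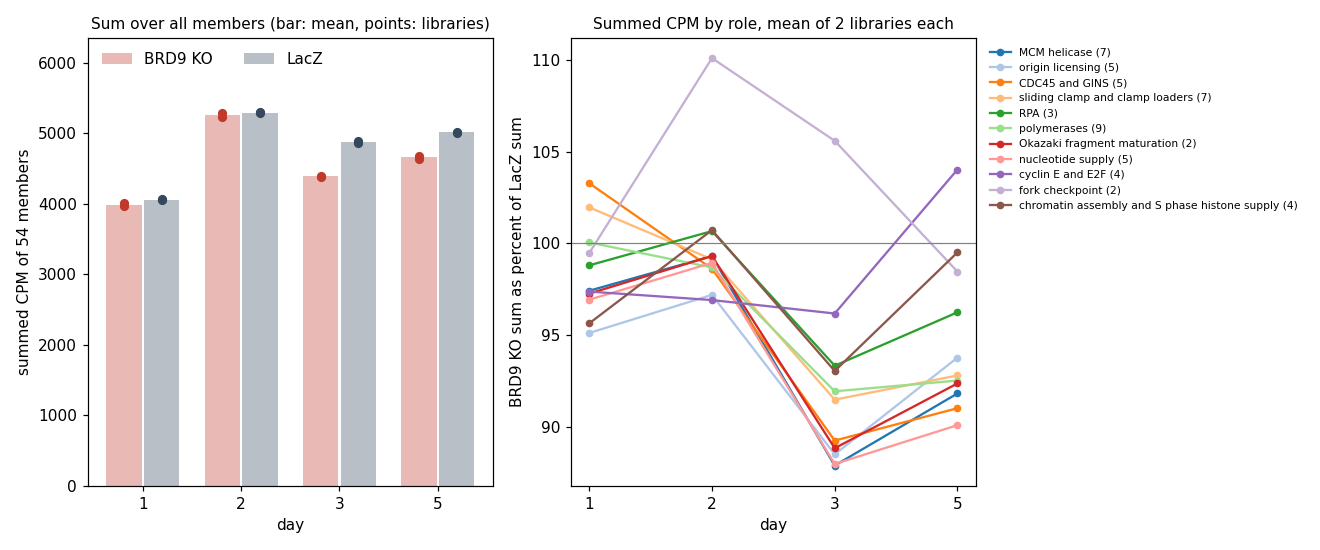
The left panel plots the summed CPM of the 54 genes by day, with bars for the mean of 2 libraries and points for libraries, BRD9 KO left of LacZ. The right panel plots, for each role with its number of genes, the BRD9 KO sum as a percent of the LacZ sum: the MCM helicase group is at 87.9% on day 3 and 91.8% on day 5, whereas cyclin E and E2F genes are at 96.2% and 104.0%.

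The number of genes called at an adjusted p under 0.05 by edgeR's quasi-likelihood test, with adjustment over all genes tested, followed the same course. On day 1 none of the 54 genes was called (6 at an unadjusted p under 0.05; DESeq2 called 0, with 3 at an unadjusted p and no adjusted p for 31 genes), where 0.539% of all genes tested were called, and the median log2 fold change of BRD9 KO over LacZ was -0.02. On day 2 none was called either (1 at an unadjusted p under 0.05; 0 called by DESeq2, with 0 at an unadjusted p and no adjusted p for 25 genes), where 2.7% of all genes were called, and the median was -0.01. On day 3, 26 of 54 were lower in BRD9 KO and 0 higher, against 5.85% of all genes lower and 4.59% higher, with a median of -0.15 and a range of -0.32 to 0.12. On day 5, 12 were lower and 1 higher, against 7.45% and 7.53% of all genes, with a median of -0.10 and a range of -0.29 to 0.28. The median over all genes tested was within 0.01 of 0 on each of these days.

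**Figure D2:**
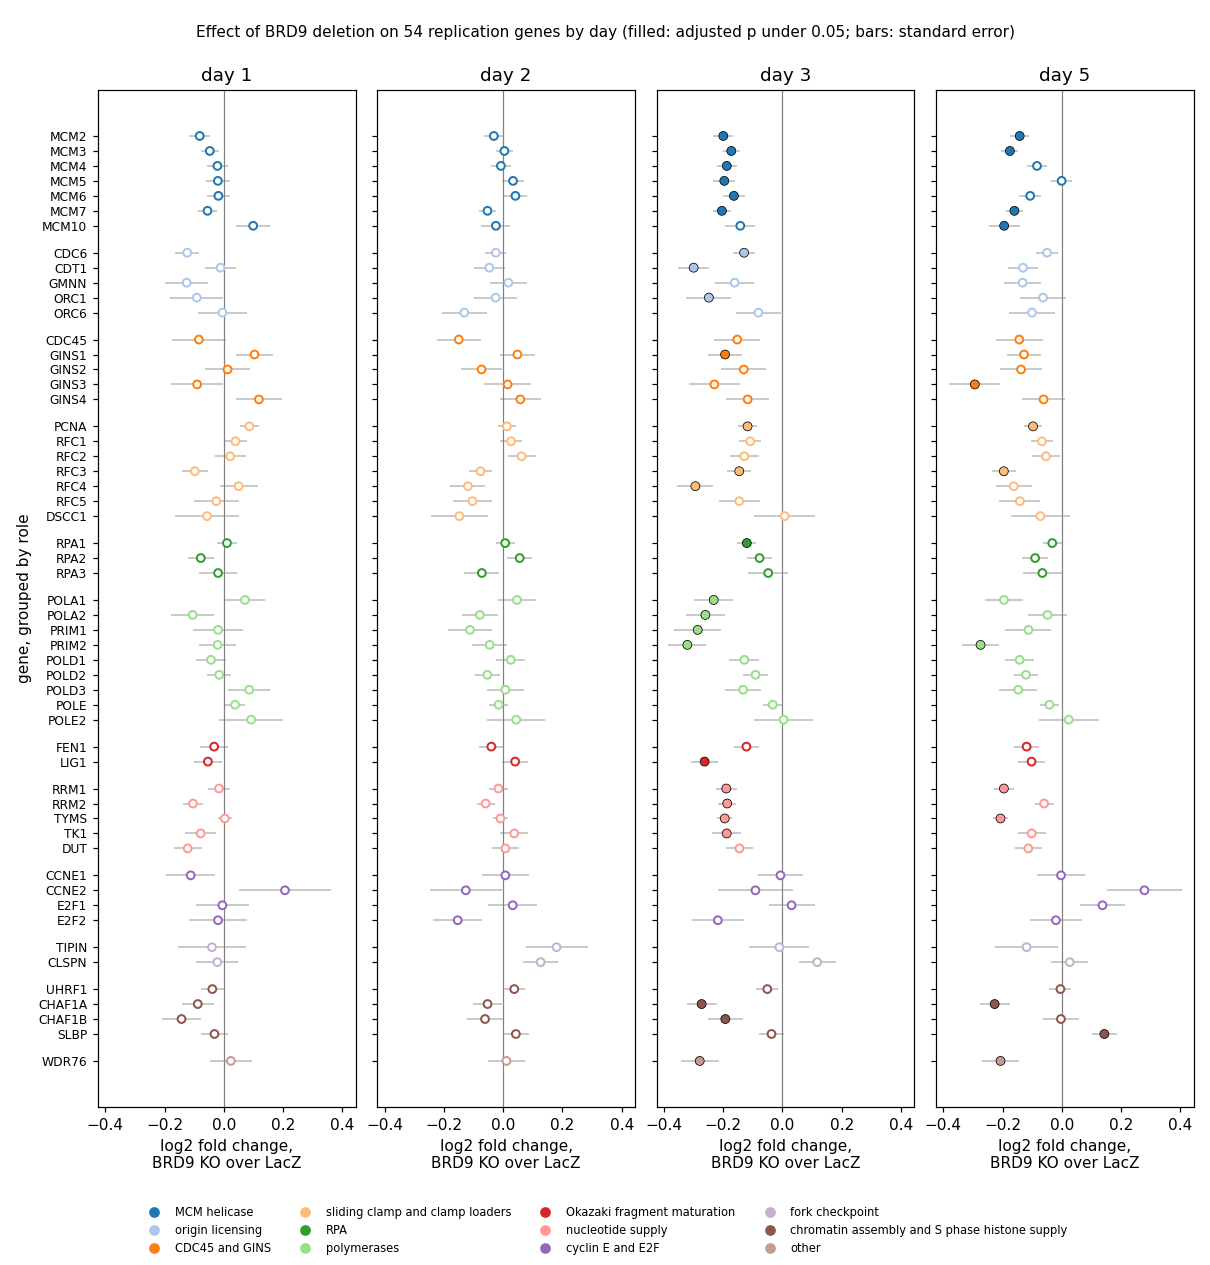
Each panel plots the log2 fold change of BRD9 KO over LacZ for the 54 genes on 1 day, grouped and coloured by role, with standard error bars and filled points for adjusted p under 0.05. No point is filled on days 1 and 2, 26 are filled on day 3 and 13 on day 5, of which SLBP is the only one to the right of 0.

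Over the mean of days 3 and 5, which uses 8 libraries, 35 of the 54 genes were lower in BRD9 KO and 0 higher, against 10.9% of all genes lower and 10.6% higher. The median log2 fold change was -0.13, and 49 of the 54 values were negative. The counts depended on the test: DESeq2 called 14 on day 3, 8 on day 5 and 24 over both days, and limma on log2(TPM + 1) called 3, 4 and 10. Both BRD9 KO libraries lay below both LacZ libraries for 16, 16, 43 and 38 of the 54 genes on days 1, 2, 3 and 5, where 20.6%, 21.8%, 25.9% and 27.2% of all genes did. They lay below on both day 3 and day 5 for 33 of the genes, against 14% of all genes. The 6 genes below on neither day were POLE2, CCNE1, E2F1, TIPIN, CLSPN and SLBP.

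Among the MCM helicase genes all 7 were lower in BRD9 KO over days 3 and 5, with log2 fold changes of -0.18 to -0.10 and a median of -0.17. MCM7, a subunit of the ring (chr7:99689856-99699563, minus strand, on GRCh37 like the other gene positions), had 255 and 246 CPM in BRD9 KO libraries on day 3, against 289.7 and 287 CPM in LacZ libraries, and 296 and 287 CPM on day 5, against 329 and 321 CPM. Every BRD9 KO library of these days lay below both LacZ libraries. On day 1 the values 228 and 237.2 CPM in BRD9 KO overlapped narrowly with 248 and 236.6 CPM in LacZ. On day 2 MCM7 was again lower in BRD9 KO, with 300.4 and 305 CPM against 312 and 316 CPM. That difference was not called (-0.05, adjusted p = 0.465, edgeR), and 21.8% of all genes lay below in this way on day 2. On the log2 scale its change came to -0.20 on day 3 (standard error 0.030, adjusted p = 0.000133, edgeR), -0.16 on day 5 (adjusted p = 0.000712) and -0.18 over both days (adjusted p = 2.95e-06). AP4M1 overlaps MCM7 on the opposite strand, and the counting was not stated to use strand, so reads of both genes could be mixed.

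MCM3, another ring subunit (chr6:52128812-52149679, minus strand), had 207 and 202 CPM in BRD9 KO against 229.7 and 231 CPM in LacZ libraries on day 3, and 225 and 230.4 CPM against 261 and 253 CPM on day 5. The groups did not overlap on either day, and the fold change over both days was -0.17 on the log2 scale (standard error 0.020, adjusted p = 4.16e-06, edgeR). MCM2, MCM4, MCM5 and MCM6 had log2 fold changes of -0.17, -0.14, -0.10 and -0.14 over these days. MCM10, which is no part of the ring but acts when the helicase is switched on, stood at -0.17.

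MCM5, singled out after its values were seen, was called on day 3 and over both days but not on day 5. The same was true of MCM4 and MCM6 (day 5 adjusted p = 0.117 and 0.0647, edgeR). On day 3 MCM5 had 109.8 and 109 CPM in BRD9 KO against 126 and 125 CPM in LacZ libraries (log2 fold change -0.20, adjusted p = 0.00164, edgeR). On day 5 it had 135 and 132 CPM in BRD9 KO and 132 and 135 CPM in LacZ libraries, and the groups overlapped. The difference between its day 5 and day 3 effects was 0.20 (standard error 0.052) and did not pass the test (adjusted p = 0.101, edgeR). Over both days together its log2 fold change was the smallest of the ring subunits.

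Of the 5 origin licensing genes 4 were lower over days 3 and 5. CDT1, the factor that brings the MCM ring to the origin (chr16:88870197-88875666, plus strand), had 48.1 and 44.5 CPM in BRD9 KO against 55.3 and 59.2 CPM in LacZ libraries on day 3, a change of -0.30 on the log2 scale (standard error 0.053, adjusted p = 0.001, edgeR). On day 5 it had 55.1 and 56.5 CPM against 58.8 and 64.1 CPM, with no overlap but no call (-0.13, adjusted p = 0.101, edgeR), and over both days -0.22 (adjusted p = 0.000268). GMNN, the inhibitor of CDT1 and the most abundant of these genes by TPM, had 32.8 and 37.2 CPM in BRD9 KO against 36.9 and 40.7 CPM in LacZ libraries on day 3, which overlapped. On day 5 it had 37.4 and 40.1 CPM against 43.6 and 41.7 CPM.

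GMNN stood at -0.15 over both days (adjusted p = 0.0276, edgeR), and leaving out replicate 1 of BRD9 KO on day 3, replicate 1 of BRD9 KO on day 5, replicate 2 of LacZ on day 3 or replicate 1 of LacZ on day 5 ended this call (adjusted p = 0.2025, 0.0857, 0.153 and 0.1075). CDC6, the loader ATPase, and ORC1, the largest subunit of the origin recognition complex, were at -0.09 and -0.16 and called. ORC6, another subunit, was at -0.09 and not called (adjusted p = 0.272, edgeR).

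CDC45 and the GINS subunits had similar log2 fold changes to the licensing genes but fewer calls. Their summed level was lower, at 152 CPM against 239 CPM in BRD9 KO on day 3. Single genes did not split by level: the called ORC1 averaged 30.7 CPM there and the uncalled CDC45 31.1 CPM. The part of the level in the calls was not tested. GINS3 (chr16:58328984-58440051, plus strand) had 14.96 and 13.7 CPM in BRD9 KO against 16.6 and 17.3 CPM in LacZ libraries on day 3, and 15.2 and 15.03 CPM against 18.2 and 18.8 CPM on day 5. It lay lower in every BRD9 KO library of the late days, with -0.26 over both (standard error 0.061, adjusted p = 0.004, edgeR). GINS1 was at -0.16 and also called. GINS2, GINS4 and CDC45 were at -0.13, -0.09 and -0.15 and not called (adjusted p = 0.0786, 0.248 and 0.0657, edgeR). CDC45, which rides with the ring at the fork, had 31.6 and 30.6 CPM in BRD9 KO against 34.7 and 34.6 CPM in LacZ libraries on day 3, without overlap, and 33.2 and 29.5 CPM against 36.6 and 31.6 CPM on day 5, with overlap.

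For the sliding clamp and its loaders, 5 of 7 genes were lower over days 3 and 5. PCNA, the clamp that holds polymerases on DNA (chr20:5095599-5107272, minus strand), had 220.2 and 235 CPM in BRD9 KO against 247 and 245 CPM in LacZ libraries on day 3, and 211 and 213 CPM against 224 and 229 CPM on day 5. On day 1 the order was the other way, with 206 and 214 CPM in BRD9 KO above 198 CPM in both LacZ libraries, a difference that was not called (0.09, adjusted p = 0.32, edgeR). Over days 3 and 5 it was lower, with a log2 difference of -0.11 (standard error 0.022, adjusted p = 0.0014, edgeR).

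Of the RFC subunits, which open and close the clamp, RFC1, RFC3, RFC4 and RFC5 were lower over the late days and RFC2 was not called (-0.09, adjusted p = 0.0918, edgeR). RFC4 (chr3:186507669-186524847, minus strand) had 29.6 and 30.9 CPM in BRD9 KO against 36.4 and 37.5 CPM in LacZ libraries on day 3, and 34.3 and 31.5 CPM against 37.5 and 35.5 CPM on day 5. The groups did not overlap, and the log2 fold change was -0.23 over both days (adjusted p = 0.000652, edgeR). EIF4A2 overlaps RFC4 on the opposite strand.

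RFC3 (chr13:34392206-34540695, plus strand) had 73.1 and 74.1 CPM in BRD9 KO against 78.8 and 83.8 CPM in LacZ libraries on day 3, and 70.9 and 71.0 CPM against 81.6 and 80.9 CPM on day 5. It was lower in each BRD9 KO library, by -0.17 over both days (adjusted p = 0.000214, edgeR), and was the only RFC gene called on day 5 (-0.20, adjusted p = 0.00238). Both BRD9 KO libraries already lay below both LacZ libraries for RFC3 on days 1 and 2, without a call. DSCC1, part of the loader that acts in sister chromatid cohesion, was at -0.03 (adjusted p = 0.834).

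The RPA genes had a median of -0.08 over days 3 and 5, and 1 of the 3 was called. RPA1, the large subunit (chr17:1732996-1803376, plus strand), had 164 and 159.6 CPM in BRD9 KO against 178 and 175 CPM in LacZ libraries on day 3 and 169 and 177 CPM against 180.2 and 174 CPM on day 5, where the groups overlapped. It was called over both days (-0.08, adjusted p = 0.0206, edgeR), but not without replicate 2 of BRD9 KO on day 3, replicate 1 of LacZ on day 3, replicate 1 of BRD9 KO on day 5 or replicate 1 of LacZ on day 5 (adjusted p = 0.0758, 0.0776, 0.0818 and 0.1038). RPA3, the smallest subunit and the most abundant of the 3 by TPM, was at -0.06 (adjusted p = 0.445, edgeR), with 32.9 and 32.1 CPM in BRD9 KO against 32.8 and 34.5 CPM in LacZ libraries on day 3 and 37.3 and 35.8 CPM against 37.4 and 39.0 CPM on day 5.

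Among the 9 polymerase and primase genes, 7 were lower over days 3 and 5. The exceptions were POLE and POLE2, the subunits of polymerase epsilon on the list. PRIM2, the large primase subunit (chr6:57179603-57513376, plus strand), had 29.1 and 30.4 CPM in BRD9 KO against 38.8 and 35.4 CPM in LacZ libraries on day 3, and 32.1 and 34.1 CPM against 39.8 and 40.6 CPM on day 5. Its groups were well apart on both days and overlapped on days 1 and 2. The log2 fold change of -0.30 over days 3 and 5 was the lowest of the 54 genes (standard error 0.045, adjusted p = 6.71e-05, edgeR). The other primase and polymerase alpha genes, PRIM1, POLA1 and POLA2, stood at -0.20, -0.21 and -0.15 and were also called.

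The polymerase delta subunits POLD1, POLD2 and POLD3 had smaller called effects of -0.14, -0.11 and -0.14. POLD2, the most abundant of the polymerase genes (chr7:44154230-44163957, minus strand), had 137 and 145 CPM in BRD9 KO against 145 and 155 CPM in LacZ libraries on day 3 and 153 and 151 CPM against 165 and 166 CPM on day 5. It was called over both days (adjusted p = 0.0123, edgeR) but not without replicate 1 of BRD9 KO or replicate 2 of LacZ on day 3 (adjusted p = 0.0849 and 0.0817). POLE, the catalytic subunit of polymerase epsilon, was at -0.04 (adjusted p = 0.282, edgeR) and its partner POLE2 at 0.01 (adjusted p = 0.931). For POLE both BRD9 KO libraries still lay below both LacZ libraries on days 3 and 5, as for 14% of all genes.

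Both genes of Okazaki fragment maturation were lower over days 3 and 5. LIG1, the ligase that seals the fragments (chr19:48618702-48673860, minus strand), had 54.2 and 55.2 CPM in BRD9 KO against 65.4 and 65.7 CPM in LacZ libraries on day 3, and 63.6 and 60.4 CPM against 66.0 and 66.5 CPM on day 5. The gap was wider on day 3 (-0.26, adjusted p = 0.000946, edgeR) than on day 5 (-0.10, adjusted p = 0.159), and the difference between the days did not pass the test (0.16, adjusted p = 0.425). FEN1, the nuclease that trims the flap (chr11:61560383-61564710, plus strand), had 102 and 104 CPM in BRD9 KO against 111 and 114 CPM in LacZ libraries on day 3 and 99.6 and 106 CPM against 109.6 and 115 CPM on day 5. It was called over both days only (-0.12, adjusted p = 0.00598, edgeR).

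All 5 nucleotide supply genes were lower over days 3 and 5, with log2 fold changes of -0.20 to -0.12. TYMS (chr18:657653-673578, plus strand) had 257 and 256 CPM in BRD9 KO against 296 and 291 CPM in LacZ libraries on day 3, and 259.6 and 262 CPM against 299 and 303 CPM on day 5. On day 1 it had 299.8 and 308 CPM in BRD9 KO against 303 and 304 CPM in LacZ libraries, so the groups overlapped there. The log2 fold change was -0.19 on day 3, -0.21 on day 5 and -0.20 over both (standard error 0.018, adjusted p = 9.31e-08, edgeR), the smallest p of the 54 genes. ENOSF1 and TYMSOS overlap TYMS on the opposite strand.

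RRM1, the large subunit of ribonucleotide reductase (chr11:4115937-4160162, plus strand), had 136 and 145 CPM in BRD9 KO against 161 and 158 CPM in LacZ libraries on day 3, and 149 and 148 CPM against 167 and 173 CPM on day 5. It stayed apart on both days (-0.19 over both, standard error 0.024, adjusted p = 1.03e-05, edgeR). The small subunit RRM2 was called on day 3 (-0.19, adjusted p = 0.000565) and not on day 5 (-0.06, adjusted p = 0.25), and the difference between the days did not pass the test (0.13, adjusted p = 0.295). Thymidine kinase TK1 and DUT were at -0.14 and -0.13 over both days. DUT has 8 pseudogenes named after it, so its counts are uncertain, as are those of the 11 other genes of the 54 with such copies, PCNA, RRM2, RPA2 and TYMS among them.

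The 4 genes that drive entry into S phase were not called in either direction. CCNE1, cyclin E1, had 33.4 and 34.2 CPM in BRD9 KO against 32.7 and 35.1 CPM in LacZ libraries on day 3, and 28.3 and 33.8 CPM against 29.5 and 33.9 CPM on day 5. The groups overlapped on both days, and the log2 fold change was -0.00 with a standard error of 0.056 (adjusted p = 0.97, edgeR). CCNE2, E2F1 and E2F2 were at 0.09, 0.08 and -0.12 (adjusted p = 0.519, 0.319 and 0.198). CCNE2, singled out after its values were seen, had the largest positive value on day 5, 0.28, at 9.17 and 11.2 CPM in BRD9 KO against 9.15 and 7.75 CPM in LacZ libraries, and was not called (adjusted p = 0.162).

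The fork checkpoint genes were not called either. CLSPN, claspin, which passes the signal of a stalled fork to the kinase CHK1, had 48.6 and 48.4 CPM in BRD9 KO against 43.9 and 45.5 CPM in LacZ libraries on day 3 and 45.4 and 49.8 CPM against 45.5 and 48.9 CPM on day 5. It was the only one of the 54 with both BRD9 KO libraries above both LacZ libraries on day 3, as 25.3% of all genes had, and stood at 0.07 over both days (standard error 0.044, adjusted p = 0.28, edgeR). TIPIN, a partner of the fork protein TIMELESS, was at -0.06 (adjusted p = 0.6).

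The chromatin assembly genes split. CHAF1A, the large subunit of the factor that puts histones on new DNA (chr19:4402637-4445015, plus strand), had 65.8 and 70.5 CPM in BRD9 KO against 82.2 and 81.7 CPM in LacZ libraries on day 3, and 72.2 and 67.1 CPM against 84.2 and 77.6 CPM on day 5. It was lower in every BRD9 KO library of both days (-0.25, standard error 0.036, adjusted p = 4.15e-05, edgeR). For CHAF1A, RFC3 and RRM2 both BRD9 KO libraries also lay below both LacZ libraries on days 1 and 2, without a call. Of all genes, 20.6% lay below on day 1 and 21.8% on day 2. CHAF1B, the partner of CHAF1A, was lower on day 3 (-0.19, adjusted p = 0.04) and not on day 5 (-0.00, adjusted p = 0.986), with no call over both days (-0.10, adjusted p = 0.109).

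UHRF1, which helps to copy DNA methylation, was at -0.03 (adjusted p = 0.509, edgeR). SLBP, the protein that binds the stem-loop of histone mRNA (chr4:1694458-1714071, minus strand), had 99.8 and 103 CPM in BRD9 KO against 92.0 and 91.7 CPM in LacZ libraries on day 5, the only call in the higher direction (0.14, adjusted p = 0.0268, edgeR). On day 3 it had 97.5 and 96.4 CPM against 103 and 96.2 CPM, which overlapped. Leaving out any 1 of the 4 day 5 libraries ended the SLBP call.

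WDR76, a WD repeat protein that binds DNA (chr15:44119178-44160610, plus strand), had 30.04 and 29.4 CPM in BRD9 KO against 34.5 and 37.7 CPM in LacZ libraries on day 3 and 32.2 and 33.96 CPM against 36.6 and 40.3 CPM on day 5. No BRD9 KO library reached a LacZ library on these days, and the log2 fold change over both was -0.24 (standard error 0.044, adjusted p = 0.000485, edgeR).

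**Figure D3:**
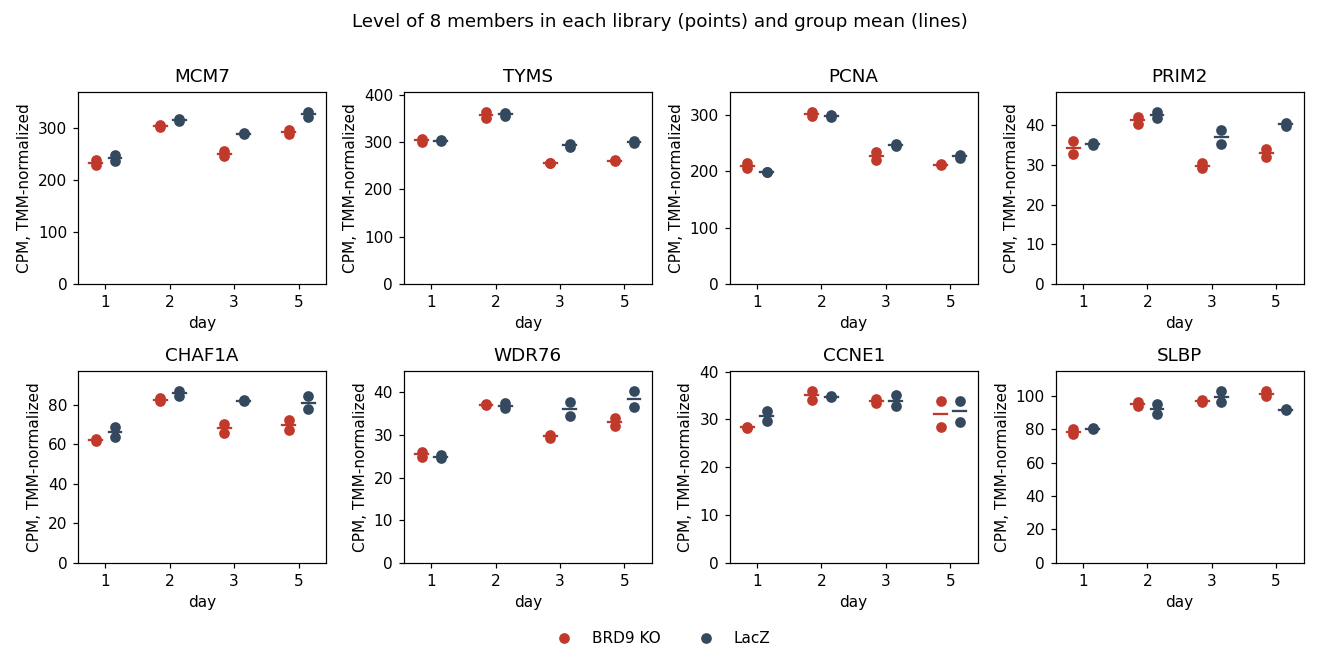
TMM-normalized CPM of 8 genes in each library by day, BRD9 KO left of LacZ, with lines at the means of 2 libraries and axes from 0. MCM7, TYMS, PCNA, PRIM2, CHAF1A and WDR76 have both BRD9 KO points below both LacZ points on days 3 and 5, CCNE1 overlaps on both days, and SLBP has both BRD9 KO points above on day 5.

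Set side by side, the MCM2 to MCM7, polymerase, nucleotide supply and RFC genes had similar medians. Single polymerase and primase genes ranged from -0.30 to 0.01 over days 3 and 5. The RFC group leaves out PCNA (-0.11) and the loader subunit DSCC1 (-0.03), and the MCM group leaves out MCM10 (-0.17). With them, the median was -0.11 for the clamp and its loaders (5 of 7 lower) and -0.17 for the MCM genes (7 of 7). Over days 3 and 5 the median log2 fold changes were -0.15 for MCM2 to MCM7 (6 of 6 lower), -0.14 for the polymerases and primases (7 of 9), -0.14 for nucleotide supply (5 of 5) and -0.14 for RFC1 to RFC5 (4 of 5). In summed CPM the MCM2 to MCM7 level in BRD9 KO was 87.8% of that in LacZ on day 3 and 92.0% on day 5. The percentages were 91.9% and 92.5% for the polymerases, 88.0% and 90.1% for nucleotide supply, and 90.4% and 92.3% for RFC1 to RFC5. The differences between the groups were not tested.

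The effects of days 3 and 5 were compared directly, in a test chosen after seeing the data. None of the 54 genes was called for a difference between them (8 at an unadjusted p under 0.05; DESeq2 called 0, with 3 at an unadjusted p and no adjusted p for 29 genes), where 0.952% of all genes were. The fewer calls of day 5 than of day 3 are therefore not shown to be a difference between the days. The largest differences by size were CCNE2 at 0.37, POLA2 at 0.21, and E2F2 and MCM5 at 0.20 each, all towards a higher value on day 5.

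**Figure D4:**
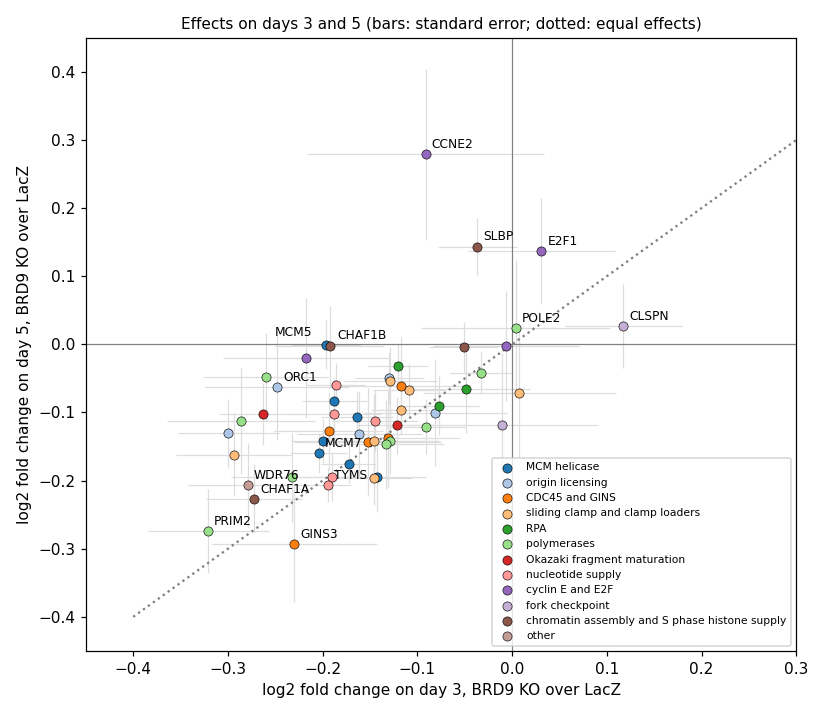
The log2 fold change of BRD9 KO over LacZ on day 5 is plotted against that on day 3 for the 54 genes, coloured by role, with standard error bars and a dotted line of equal effects. PRIM2, CHAF1A, WDR76 and TYMS lie low on both axes, MCM5 and CHAF1B lie low on day 3 and near 0 on day 5, and SLBP, E2F1 and CCNE2 lie above 0 on day 5.

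To ask whether the effect grew with time, the mean effect of days 1 and 2 was subtracted from that of days 3 and 5. By edgeR 16 of the 54 genes were called, all in the lower direction, where 4.03% of all genes were lower and 3.41% higher. They were 6 of the 7 MCM genes, CDT1, GINS1, PCNA, POLA1, PRIM2, LIG1, RRM1, TYMS, CHAF1A and WDR76. TYMS had the smallest p, with a difference of -0.20 (standard error 0.025, adjusted p = 2.91e-05), followed by MCM3 at -0.15 (adjusted p = 0.00256), RRM1 at -0.18 (adjusted p = 0.00302) and PCNA at -0.16 (adjusted p = 0.00332). The count was 9 without replicate 2 of BRD9 KO on day 1 or replicate 1 of BRD9 KO on day 3, and 10 without replicate 2 of LacZ on day 2 or replicate 1 of LacZ on day 5.

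The same genes also changed with time in the control cells. In LacZ cells 46 of the 54 genes were higher on day 5 than on day 1 and 0 lower, where 12.7% of all genes were higher and 12.9% lower, with a median log2 fold change of 0.32. In BRD9 KO cells 32 were higher on day 5 than on day 1, and 1 lower, where 17.5% of all genes were higher and 17.5% lower, with a median of 0.26. The 1 lower gene was TYMS, at -0.22 in BRD9 KO cells (adjusted p = 1.34e-06, edgeR) and -0.01 in LacZ cells (adjusted p = 0.792). The MCM group was called higher in 7 of 7 genes in both kinds of cell, whereas the polymerase group was called in 2 of 9 in BRD9 KO and in 9 of 9 in LacZ cells.

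Single genes showed how far the 2 courses lay apart. PRIM2 was at -0.06 on day 5 over day 1 in BRD9 KO cells (adjusted p = 0.495, edgeR) and 0.19 in LacZ cells (adjusted p = 0.0291), and PCNA at 0.01 (adjusted p = 0.838) and 0.19 (adjusted p = 0.000151). For CCNE2 the values were 0.87 and 0.80, and for E2F1 0.60 and 0.45, all called. Differences between the courses were not tested gene by gene beyond the comparison of late with early effects above.

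**Figure D5:**
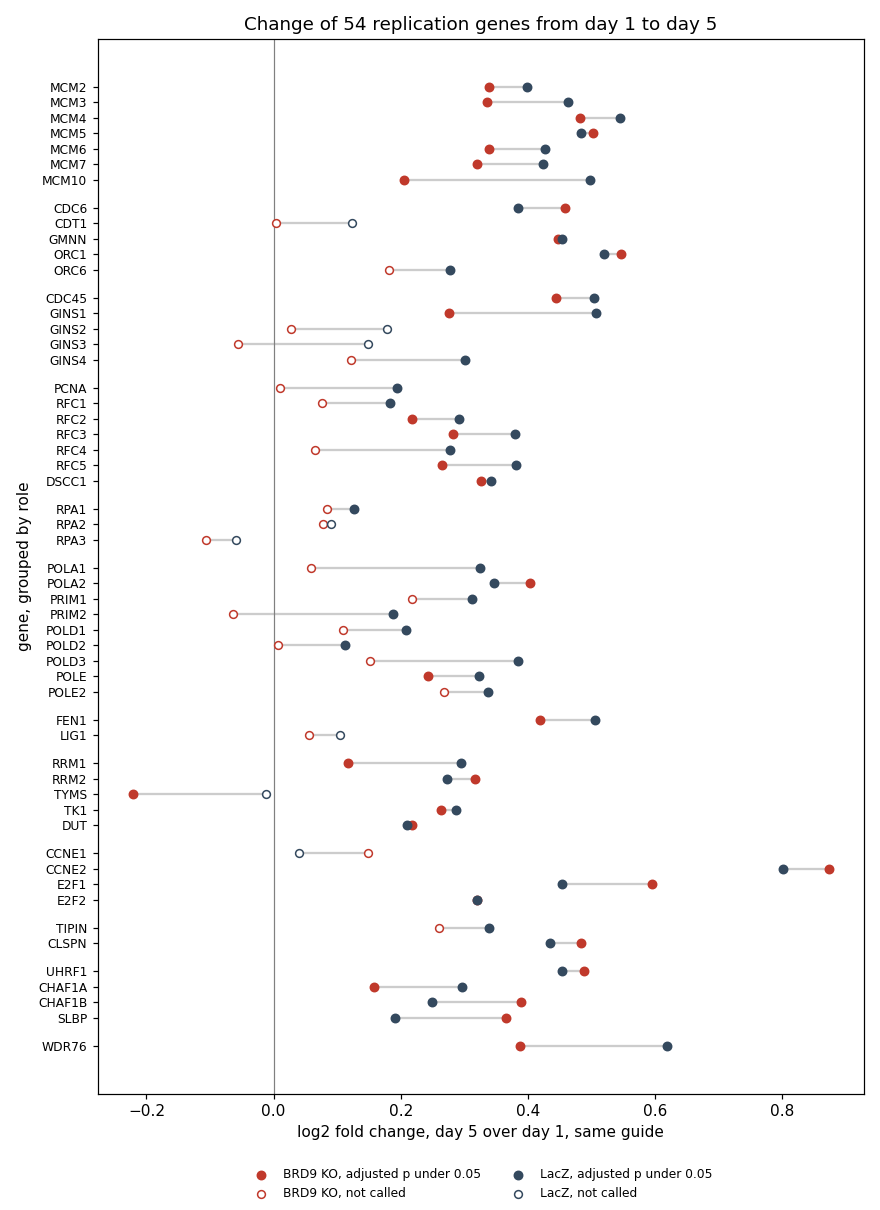
For each of the 54 genes, grouped by role, the log2 fold change of day 5 over day 1 is plotted for BRD9 KO and for LacZ cells, joined by a line, with filled points for adjusted p under 0.05. Most points lie to the right of 0 in both kinds of cell, and TYMS is the only filled point to the left, in BRD9 KO.

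The rise in LacZ cells was not steady. A pair of further contrasts, chosen after seeing the data, showed 50 of 54 genes higher on day 2 than on day 1 (14.8% of all genes), with a median of 0.39 and the largest change in CCNE2 (1.19). From that level, 23 were lower on day 3 than on day 2 (12.1% of all genes), with a median of -0.12. The count of lower genes was 14, 13 and 13 without LacZ day 2 replicate 1, LacZ day 2 replicate 2 and LacZ day 3 replicate 2, and in the first and last of these fits SLBP was called higher (0.16 in both). PCNA showed both steps, with 198 CPM in both libraries on day 1, 296 and 300.3 CPM on day 2 and 247 and 245 CPM on day 3, all in LacZ cells (0.59, adjusted p = 7.51e-11, and -0.28, adjusted p = 2.11e-06, edgeR). The density of the cells and the time since plating are not in the labels, and their part in these steps was not tested.

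Genes of the next cell cycle phases and other replication genes were set beside the 54. Of 44 G2/M genes, 33 were lower in BRD9 KO over days 3 and 5 and 0 higher, with a median of -0.16. Of all genes tested, 10.9% were lower and 10.6% higher. TOP2A, the topoisomerase that untangles copied chromosomes, averaged 466 CPM in BRD9 KO and 534 CPM in LacZ libraries on day 3 (n = 2 each) and 442 against 521 CPM on day 5, a log2 fold change of -0.22 over both (adjusted p = 5.07e-09, edgeR). PRC1 and TPX2, which act on the spindle, were at -0.25 and -0.23. On day 5, 26 of the 44 were lower, where 7.45% of all genes were. As a share this was more than the 12 of 54 among the replication genes, and this contrast of shares was not tested.

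Of 66 other replication and repair genes, 18 were lower and 1 higher over days 3 and 5, where 10.9% of all genes were lower and 10.6% higher. The median of the 66 genes was -0.07. USP1, which removes ubiquitin from PCNA, was at -0.20 and the helicase BRIP1 at -0.25. The 1 higher gene was RRM2B, the p53-induced small subunit of ribonucleotide reductase, at 0.10 (adjusted p = 0.0443, edgeR). E2F-type words were in 13 of 52 promoters of these genes (25.0%) and in 3 of 37 promoters of the G2/M genes (8.11%). As the G2/M genes moved with the replication genes, the part of a change in the share of dividing cells was not tested.

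For counts without strand, 28 of the 54 genes are overlapped by a gene on the opposite strand. Among the 26 without one, 17 were lower over days 3 and 5 (65.4%), compared with 64.8% of all 54. Leaving out single libraries lowered the count of 26 genes called on day 3 to 13 without BRD9 KO day 3 replicate 1, to 15 without LacZ day 3 replicate 1 and to 16 without LacZ day 3 replicate 2. It lowered the 13 calls of day 5 to 8 without BRD9 KO day 5 replicate 1, whereas the 35 calls over both days stayed between 26 and 33.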

How the data were processed

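For RNA-Seq, the authors extracted total RNA with Trizol, made libraries with the NEBNext Ultra kit, aligned reads to hg19 with STAR and quantified genes with RSEM, and named DESeq2 for differential expression; versions are not given in the sources used here. The deposited tables hold the expected count of each gene, an estimate that was not whole in 35.7% of values above 0, with the TPM (scaled by length and library total) and the transcript length that the authors' RSEM gave. Expected counts were rounded and fitted with edgeR 4.0.16 (R 4.3.3, TMM, filterByExpr with a minimum count of 10 and total of 15, a mean per group over all 16 libraries, 8 residual degrees of freedom). The quasi-likelihood test was two-sided, p-values were adjusted by Benjamini-Hochberg over 15027 genes and called under 0.05, and standard errors were derived from the F statistic. The common biological coefficient of variation was 0.023, and replicate spread was 1.05 to 1.15 times counting noise.

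The 54 genes and the comparison lists (66 other replication genes, 44 G2/M genes) were chosen with earlier results of these data known, and no p refers to a list. Per-library values are given for the called gene with the smallest p in each direction and the most abundant gene by TPM in each role, the 5 largest called changes in each direction over days 3 and 5 and the 4 smallest p of late minus early effects; MCM5, CCNE2 and the genes named in counts were added after seeing their values. From each comparison list the 3 called genes with the smallest p per direction are named, except 1 that is not reported here. Gene positions are on GRCh37 (GENCODE v44lift37, 53 genes matched by identifier and UHRF1 by symbol). Promoters are from RefSeq. The pipeline was tested on simulated counts. Alternatives were DESeq2 1.42.0, other scalings and filters, limma 3.58.1 on log2(TPM + 1) and log2(TPM + 0.1), fewer libraries in the fit, the replicate number as a block, thinning to the smallest total, a threshold of 0.01 and each library left out in turn. The marker PECAM1 was not analysed here.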

Additional observations from a re-analysis of the deposited data

Results flagged for a closer look

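In 16 genes the BRD9 effect of days 3 and 5 differed from that of days 1 and 2 (edgeR, adjusted p under 0.05 over all genes), each towards a lower value in BRD9 KO on the later days. The log2 differences were -0.11 for MCM2, -0.15 for MCM3, -0.12 for MCM4, -0.15 for MCM6, -0.13 for MCM7 and -0.21 for MCM10 among the helicase genes. The difference was -0.19 for the licensing factor CDT1. It was -0.24 for GINS1, -0.16 for PCNA, -0.27 for POLA1, -0.26 for PRIM2 and -0.18 for LIG1 among the other genes of the fork. For RRM1 and TYMS, which supply nucleotides, they were -0.18 and -0.20, for CHAF1A -0.18 and for WDR76 -0.26. The DNA polymerase alpha subunit POLA1 had the lowest value: it stood at 38.2 CPM in both BRD9 KO libraries against 35.5 and 37.1 CPM in LacZ libraries on day 1, and at 40.4 and 39.4 CPM against 47.4 and 43.5 CPM on day 5. The calls without each library were followed for 10 of the 16 genes, and POLA1 was not among them. Of these 10, TYMS, PCNA, MCM3, MCM7 and RRM1 kept the call in all 16 fits. PRIM2 and WDR76 lost it in 1 each, LIG1 in 7, CDT1 in 10 and CHAF1A in 12. DESeq2 called 7 of the 16 genes and gave no adjusted p for 6 of the 54.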

How the results depend on the processing

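The counts of genes called moved by over 1.5 times under a few alternatives. On day 3, where edgeR called 26, DESeq2 called 14, limma on log2(TPM + 1) and log2(TPM + 0.1) 3 each, thinned counts 15 and a threshold of 0.01 15. On day 5 (13 called) DESeq2 called 8, limma 4 and 3, and the threshold of 0.01 8. Over both days (35) limma called 10 under either pseudocount. For late minus early effects (16) DESeq2 called 7, limma 2 and 2, thinned counts 5 and the threshold of 0.01 4. For LacZ day 5 minus day 1 (46) limma called 30 and 29, and for LacZ day 3 minus day 2 (23) DESeq2 called 11, limma 13 and 13 and the threshold of 0.01 13. RPA1 reversed in LacZ day 3 minus day 2, to 0.10 and 0.11 in limma. Leaving out each library in turn gave 0 to 0 called genes on day 1 and on day 2, 13 to 19 on day 3, 8 to 11 on day 5, 26 to 33 over both late days, 9 to 14 for late minus early effects, 36 to 41 for LacZ and 29 to 33 for BRD9 KO day 5 minus day 1, 0 to 0 for day 5 minus day 3 effects, and 48 to 50 and 13 to 18 for LacZ day 2 minus day 1 and day 3 minus day 2. In those fits the lone library of a group is assumed to vary like the other groups. The replicate numbers did not pair the libraries (correlations of deviations over all genes -0.0489 to -0.0123, and over genes above a log2 CPM of 5 -0.0377, -0.12, 0.0979 and 0.179 on days 1, 2, 3 and 5), and with the replicate block 25 genes were called on day 3, 15 on day 5, 35 over both days and 13 for late minus early effects, none a change of over 1.5 times. The median log2 fold change of the 54 genes over both late days was -0.14 to -0.12 over the alternatives, on day 3 -0.17 to -0.12, on day 5 -0.12 to -0.09 and for late minus early effects -0.12 to -0.08. On day 1 it was -0.06 in limma on log2(TPM + 0.1), against -0.02 in edgeR, and on day 2 it was -0.02 to 0.00, so its sign was not stable. Of 17 genes with per-library values and a call over both days, 9 lost the call in limma under either pseudocount, 3 in DESeq2 and 3 at the threshold of 0.01. The causes were not tested. A fit of late minus early effects on fewer libraries was not run, since it uses all of them.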
